A study of Homo sapiens with 6 samples.

Results

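LCN2, the gene of the secreted protein lipocalin 2, and 9 genes that cells use to take up, store, release and sense iron were followed in PC-3 cells depleted of CdGAP. The 10 genes (LCN2, TFRC, FTH1, FTL, SLC40A1, SLC11A2, STEAP3, IREB2, ACO1 and NCOA4) were found by symbol in the count tables of 6 RNA libraries. They are 10 of the 64253 genes in those tables, and all 10 are among the 16439 genes with enough reads to be tested. LCN2 was taken up because it was low in the CdGAP-depleted libraries, so its values in this contrast, and those of the other members, are given as a description. No p-value of a member is printed. Counts of members that pass a limit are given beside the shares over all genes, and nothing is read from them. PC-3 cells are a long-established line from a human prostate cancer, and CdGAP, encoded by ARHGAP31, is a GTPase-activating protein. The groups were 3 libraries of PC-3 cells stably carrying a lentiviral short hairpin RNA against CdGAP (shCdGAP) and 3 of PC-3 cells carrying a control short hairpin RNA (shCon), both grown in RPMI medium with serum and given no further treatment in the labels. According to the methods, the shCdGAP cells were selected with puromycin and grown out from single-cell clones, a step not described for the shCon cells, so CdGAP depletion and the choice of a clone cannot be told apart.

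Most cells take up iron as transferrin bound to the transferrin receptor, reduce it in the endosome, carry it into the cytosol and either use it for heme and iron-sulfur clusters, store it in ferritin or export it through ferroportin. The iron regulatory proteins, encoded by ACO1 and IREB2, bind a hairpin called the iron-responsive element when iron is scarce. Bound ahead of the coding sequence, as in the ferritin mRNAs, they block translation, and bound behind it, as in the transferrin receptor mRNA, they protect the transcript from decay. Lipocalin 2 binds siderophores, the iron-carrying molecules of bacteria, and is known from neutrophil granules and from inflamed or transformed epithelia.

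Matches to the iron-responsive element in the members are shown because such elements are what ties the sensors to the other transcripts. UTRs of 1 canonical transcript per gene (GENCODE release 44, GRCh38) were searched on the transcript strand for a C, any 5 bases, CAGTG and any base, where the 5 bases between the C and CAGTG could pair (G with T allowed) with the 5 behind the loop. Of 20444 coding transcripts, 142 (0.695%) held a match, 20 in the 5′ UTR and 122 in the 3′ UTR. Among the 10 members, 4 did: FTH1, FTL and SLC40A1 with 1 match each in the 5′ UTR, and TFRC with 4 in the 3′ UTR. The search finds only this pattern, so the matches need not be all the elements of a gene. In the sequences, written 5′ to 3′, capitals mark the bulged C and the 6 loop letters of the search.
FTH1 (chr11:61967577-61967601, minus strand): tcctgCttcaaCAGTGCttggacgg
FTL (chr19:48965336-48965360, plus strand): tcttgCttcaaCAGTGTttggacgg
SLC40A1 (chr2:189580664-189580688, minus strand): aacttCagctaCAGTGTtagctaag
TFRC, first site (chr3:196050982-196051006, minus strand): attatCggaagCAGTGCcttccata
TFRC, second site (chr3:196050578-196050602, minus strand): attatCgggagCAGTGTcttccata
TFRC, the third site (chr3:196050513-196050537, minus strand): tgtatCggagaCAGTGAtctccata
TFRC, the fourth site (chr3:196050466-196050490, minus strand): attatCgggaaCAGTGTttcccata
No match was found in the transcripts searched for LCN2, SLC11A2, STEAP3, IREB2, ACO1 and NCOA4, which says only that these letters were not in those UTRs. For SLC11A2 the isoform known to carry an iron-responsive element was not searched.

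The libraries held 33182796 to 43154039 counted read pairs. ARHGAP31 was lower in shCdGAP cells, at -1.14 on the log2 scale (standard error, SE, 0.0409, edgeR quasi-likelihood test, adjusted p = 8.75e-08), the direction the labels give. One library stands apart. Compared with counting noise, shCdGAP replicate 2 differed from replicates 1 and 3 by a chi-square per degree of freedom of 27.2 and 33.3, against 3.22 between replicates 1 and 3 and 2.59 to 6.94 among the shCon libraries. Values without shCdGAP replicate 2 are therefore given with the results below. The summed level of 6 genes that PC-3 cells are known to express (KRT8, KRT18, KRT19, VIM, CD44 and PLAUR) was 2418 to 2806 CPM (counts per 1e6 reads, scaled by TMM) in shCdGAP and 1616 to 1669 CPM in shCon libraries. A list of 6 genes that PC-3 cells lack or express at low levels was not at 0 throughout: it summed to 9.75 to 12.2 CPM in shCdGAP and 9.71 to 10.3 CPM in shCon libraries. In that list KLK3 and KLK2 had no read in any library. The list was not flat: of its 2 genes with enough reads to be tested, 1 was at a log2 fold change of 2.20 and the other at -0.10. The first had an adjusted p below 0.01 in edgeR. Over all genes tested, 8.56% were higher with such a p and a log2 fold change above 1.

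Of the 10 members, 7 were higher and 3 lower in shCdGAP cells, and the size of the difference set LCN2 apart from the rest. In all 10 genes the 3 shCdGAP libraries did not overlap the 3 shCon libraries, which was also true of 67.1% of all genes tested, 34.4% with the shCdGAP libraries higher and 32.7% with them lower. By the study's limits for a call, an adjusted p below 0.01 together with a log2 fold change beyond 1 in either direction, LCN2 and SLC40A1 were called lower, as were 4.19% of all genes tested, and none of the 10 was called higher, against 8.56%. At the adjusted p alone, 9 of the 10 passed, TFRC being the exception (46.2% of all genes passed, 24.1% higher and 22% lower). With the replicate number as a block 7 of the 10 passed, SLC11A2 and ACO1 then missing it. In that fit 7229 of all 16439 genes tested passed. SLC11A2 and ACO1 also missed the limit without shCdGAP replicate 1 or any one of the shCon libraries, and ACO1 missed it without shCdGAP replicate 3. Without shCdGAP replicate 2 all 10 passed, and of all 16439 genes tested 4969 passed as higher and 4990 as lower. These counts come from the contrast in which the members were chosen and nothing is read from them. The median log2 fold change was 0.18 over the members and 0.01 over all genes tested.

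**Figure D1:**
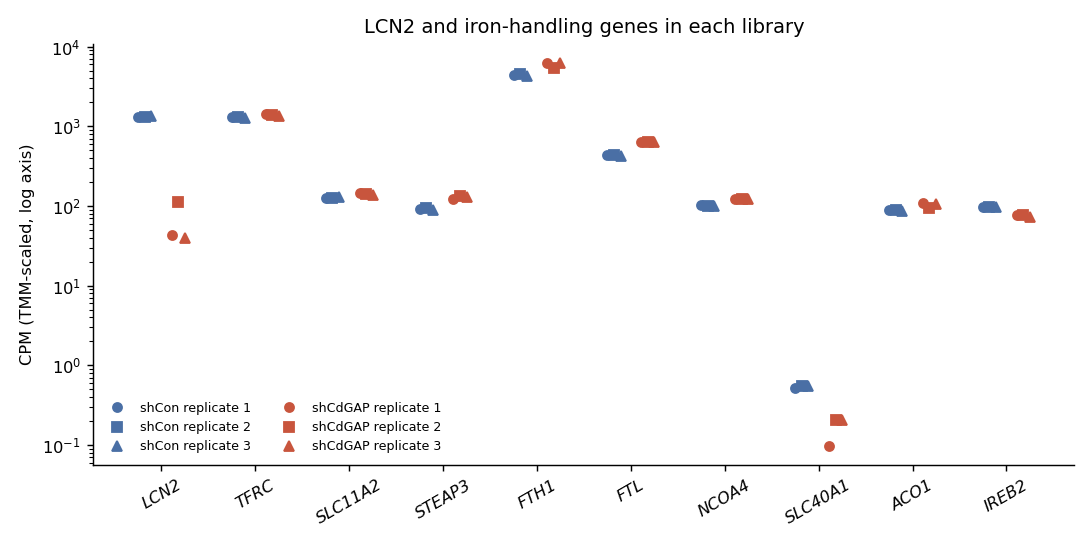
Level of each member in each library, as CPM scaled by TMM on a log axis, with shCon libraries in blue and shCdGAP libraries in red and the marker shape giving the replicate. The 3 shCdGAP libraries of LCN2 sit at 40 to 113 CPM, far below the shCon libraries at 1292 to 1335 CPM, while the groups of the other members lie much closer together.

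LCN2 (ENSG00000148346, chromosome 9 from 128149071 to 128153455, plus strand) was among the most abundant members in control cells and far lower in CdGAP-depleted cells. In shCon replicates 1, 2 and 3 the count was 54561, 54538 and 44116 reads, or 1301, 1292 and 1335 CPM. In the corresponding shCdGAP libraries it was 1769, 4905 and 1376 reads, or 43.6, 113 and 40 CPM. The shCon libraries lay close together, and among the shCdGAP libraries replicate 2 was the highest by far, yet still well under every shCon library. The means were 1309 ± 22.8 CPM in shCon and 65.4 ± 40.9 CPM in shCdGAP cells (SD, n = 3 each), a 20-fold lower level, with a log2 fold change of -4.32 (SE 0.496). Without shCdGAP replicate 2 the log2 fold change was -4.98, and over the 13 alternative settings it ran from -4.98 to -4.07. In RNA from whole cultures, fewer cells making LCN2 and less LCN2 RNA in each cell cannot be told apart.

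Neutrophils are a well-known source of lipocalin 2, so the granulocyte genes fixed for this check are given beside it. Of 12 markers, MPO, ELANE, AZU1, PRTN3, CTSG and CAMP had no read in any library. The summed level of the list was 1.79 to 2.07 CPM in shCon and 6.9 to 25 CPM in shCdGAP libraries, the opposite order to LCN2. Nearly all of that sum came from S100A9, so it describes 1 gene rather than the list. The only marker with enough reads to be tested was S100A9, at 2.03, 1.85 and 1.79 CPM in shCon and 7.72, 24.8 and 6.84 CPM in shCdGAP replicates 1, 2 and 3 (log2 fold change 2.80, SE 0.652, adjusted p = 0.0148 by edgeR, 0.00744 with the replicate block, and also under 0.01 without shCdGAP replicate 2 or 3). DESeq2 called S100A9 higher, as it did 1327 of all 16439 genes tested. Among 7 fibroblast markers, 5 of the 6 tested were called higher, against 8.56% of all genes tested. The log2 fold changes of the 6 ran from -0.04 to 3.17 with a median of 2.84. The sum over all 7 markers, not over those called, was 303 to 310 CPM in shCon and 352 to 369 CPM in shCdGAP libraries. Whether either list has a part in the level of LCN2 or of the iron genes was not tested.

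The members that bring iron into the cell were slightly to moderately higher in shCdGAP cells. TFRC (ENSG00000072274, chromosome 3 from 196027183 to 196082189) encodes the transferrin receptor. It measured 1298, 1301 and 1284 CPM in shCon and 1428, 1374 and 1353 CPM in shCdGAP replicates 1, 2 and 3, and its log2 fold change was 0.10 (SE 0.0343). The groups did not overlap, but the gap between the highest shCon and the lowest shCdGAP library was small, and the change was the smallest of the 10 members. STEAP3 (ENSG00000115107, chromosome 2 from 119223831 to 119265652) encodes a reductase that turns ferric into ferrous iron in the endosome. Its levels were 91.5, 94.4 and 90.4 CPM in shCon and 122, 132 and 128 CPM in shCdGAP replicates 1, 2 and 3. All shCdGAP libraries lay above all shCon libraries, at a log2 fold change of 0.46 (SE 0.0408), which was 0.43 without shCdGAP replicate 2. SLC11A2 (ENSG00000110911, chromosome 12 from 50979401 to 51028566) encodes DMT1, the transporter that moves ferrous iron across the endosomal membrane. It measured 127, 125 and 129 CPM in shCon and 144, 143 and 137 CPM in shCdGAP libraries, a log2 fold change of 0.15 (SE 0.0355). The difference between the lowest shCdGAP and the highest shCon library was again small.

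The storage genes were higher in every shCdGAP library. FTH1 (ENSG00000167996, chromosome 11 from 61959718 to 61967660) encodes the ferritin heavy chain, the subunit that oxidizes iron as it enters the ferritin shell. It had 4358, 4472 and 4299 CPM in shCon and 6211, 5366 and 6176 CPM in shCdGAP replicates 1, 2 and 3. Replicate 2 was the lowest of the shCdGAP libraries, so the log2 fold change of 0.44 (SE 0.0564) became 0.49 without it. FTL (ENSG00000087086, chromosome 19 from 48965301 to 48966878) encodes the light chain, which favours formation of the iron core. Its level was 433, 435 and 426 CPM in shCon and 642, 631 and 637 CPM in shCdGAP libraries. The shCdGAP libraries agreed within a ratio of 1.02, and the log2 fold change was 0.56 (SE 0.0314). NCOA4 (ENSG00000266412, chromosome 10 from 46005088 to 46030714) encodes the receptor that delivers ferritin to the lysosome for release of its iron. It measured 102, 101 and 101 CPM in shCon and 123, 121 and 122 CPM in shCdGAP libraries, a log2 fold change of 0.26 (SE 0.0325) with little spread in either group.

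Because the subunits of ferritin assemble in variable proportion, the ratio of FTH1 to FTL per kilobase of exon was also taken in each library. It was 4.35, 4.45 and 4.36 in shCon and 4.19, 3.68 and 4.19 in shCdGAP replicates 1, 2 and 3. The ratio was thus lower in all shCdGAP libraries, and lowest in the library that stands apart. The ratio of FTH1 to TFRC, a storage gene set against an uptake gene, was 13, 13.4 and 13 in shCon and 16.9, 15.2 and 17.7 in shCdGAP libraries. Reads that align to several places were not counted, and both ferritin genes have many processed pseudogenes, so their levels are less certain than those of the other members. Of 25 FTH1 pseudogenes counted, 17 had reads, and together they took reads equal to 0.601% to 0.773% of those of FTH1. Of 16 FTL pseudogenes 4 had reads, equal to 0.123% to 0.215% of those of FTL. The FTH1 pseudogenes with most reads, FTH1P7 and FTH1P20, had log2 fold changes of 0.33 (SE 0.0851, adjusted p = 0.00845, but over 0.01 with the replicate block or with any one library except shCdGAP replicate 2 left out) and 0.34 (SE 0.118, adjusted p = 0.0327), the direction of FTH1. The FTL pseudogenes with most reads were FTLP3, with 23, 36 and 22 reads in shCdGAP and 25, 17 and 15 in shCon replicates 1, 2 and 3, and FTLP14, with at most 7 reads in a library.

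SLC40A1 (ENSG00000138449, chromosome 2 from 189560579 to 189583758) encodes ferroportin, the only known exporter of iron in its free form from mammalian cells, and it was barely expressed in PC-3 cells. It had 22, 23 and 18 reads in shCon and 4, 9 and 7 reads in shCdGAP replicates 1, 2 and 3. All shCdGAP libraries were below all shCon libraries, but on few reads. Summed over the libraries of a group and scaled for library size, the shCon to shCdGAP ratio was 3.18, with a 95% interval of 1.9 to 5.56 that covers counting error only. The fitted log2 fold change was -1.65 (SE 0.311), and -1.86 without shCdGAP replicate 2.

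The genes of the 2 iron regulatory proteins differed in direction. IREB2 (ENSG00000136381, chromosome 15 from 78437431 to 78501456) encodes IRP2, which is degraded when iron is plentiful. It was lower in shCdGAP cells, with 97.8, 98 and 97.4 CPM in shCon and 76.5, 77.6 and 73.7 CPM in shCdGAP replicates 1, 2 and 3, a log2 fold change of -0.36 (SE 0.036). ACO1 (ENSG00000122729, chromosome 9 from 32384603 to 32454769) encodes IRP1, which is a cytosolic aconitase while it holds an iron-sulfur cluster. It was higher, with 90.1, 90 and 87.7 CPM in shCon and 109, 94.5 and 106 CPM in shCdGAP libraries. Replicate 2 was the lowest shCdGAP library and lay close to the shCon libraries, and the log2 fold change of 0.21 (SE 0.0547) was 0.26 without it.

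Set in order of level per kilobase of exon (RPKM, the CPM over the exon length), the shCon libraries ran from FTH1, with a median of 2147 RPKM, through LCN2 at 814, FTL at 493, TFRC at 165, NCOA4 at 24.8, STEAP3 at 20.1, SLC11A2 at 13, ACO1 at 11.9 and IREB2 at 9.05 to SLC40A1 at 0.126 RPKM. No neighbours in that order overlapped. The place of LCN2 above FTL carries the limit given above, since reads of the ferritin genes with several alignments were not counted. In shCdGAP libraries FTH1 at 3042, FTL at 726, TFRC at 174 and NCOA4 at 29.8 RPKM came first. LCN2 came next to STEAP3, at 25.1 to 70.5 RPKM against 26.7 to 28.8 RPKM for STEAP3, so the order of these neighbours depends on the library. SLC11A2 at 14.5 and ACO1 at 14.1 RPKM also overlapped, and IREB2 at 7.08 and SLC40A1 at 0.047 RPKM came last.

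The other genes of iron handling were listed by role, not by how they moved. Of 75 such genes 65 could be tested, and HAMP, FTMT and ALAS2 had no read in any library. Of the 65, 5 were called higher in shCdGAP cells (HEPHL1, FLVCR2, PCBP3, PCBP4 and HMOX1) and none lower, 7.69% against 12.8% of all genes tested. DESeq2 likewise called 5 higher and none lower, against 1327 higher and 686 lower of all 16439 genes tested. At an unadjusted p under 0.05 in edgeR 24 were higher and 20 lower (5440 and 5039 of all genes tested). At an adjusted p under 0.01 with no limit on size, 18 were higher and 14 lower, 49.2% against 46.2% of all genes. Without shCdGAP replicate 2 these counts were 21 and 17 (4969 and 4990 of all genes tested). With all libraries in the fit, the median log2 fold change of the 65 genes was 0.02.

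**Figure D2:**
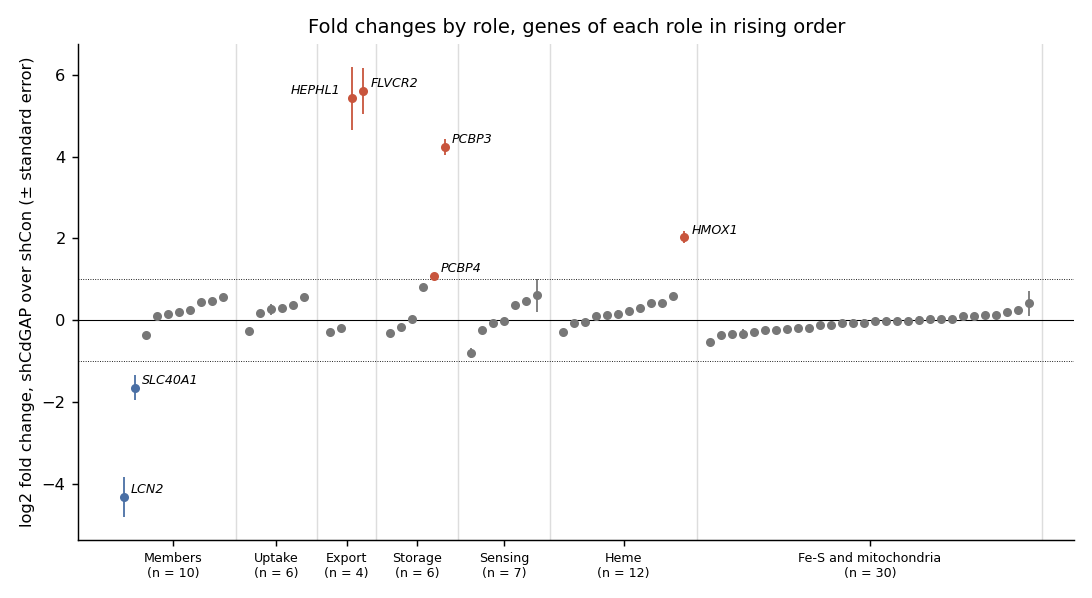
Log2 fold change of shCdGAP over shCon with its standard error for the 10 members and the 65 other iron-handling genes tested, grouped by role and in rising order within each role; dotted lines mark an absolute log2 fold change of 1, and genes called higher are red, called lower blue and the rest grey. Most genes lie within the dotted lines, with LCN2 the lowest at -4.32 and FLVCR2 and HEPHL1 the highest at 5.60 and 5.43.

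Among 6 tested genes of iron and heme uptake, 4 rose and 1 fell at the adjusted p under 0.01. Over all genes tested, 24.1% rose and 22% fell at that limit. SLC48A1, a transporter of heme out of the lysosome, measured 14.8, 13.4 and 12.5 CPM in shCon and 20.1, 19.6 and 20.7 CPM in shCdGAP replicates 1, 2 and 3 (log2 fold change 0.56, SE 0.0718, adjusted p = 1.55e-04). STEAP1, a membrane protein of the same family as STEAP3 that is abundant in prostate cancer, was higher by 0.38 log2 units (SE 0.0591, adjusted p = 4.92e-04). The gene of transferrin itself, TF, had 1 read in all, so its mRNA was not detectable in either group at this depth. In this role the changes were small, and none was called.

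Among 4 tested genes listed under export, 2 rose steeply and were called higher, as were 8.56% of all genes tested. HEPHL1 encodes zyklopen, a copper-containing ferroxidase related to hephaestin and ceruloplasmin. It measured 1.6, 1.92 and 2.18 CPM in shCon and 51.5, 149.8 and 42 CPM in shCdGAP replicates 1, 2 and 3, a log2 fold change of 5.43 (SE 0.77, adjusted p = 0.0026). As with LCN2, replicate 2 lay far above the other shCdGAP libraries, and the log2 fold change without that library was 4.63. Its adjusted p was 0.0106 without shCon replicate 1 and 0.0112 with no filter on low counts, so the call rests on those choices. FLVCR2, a membrane transporter described for heme and for choline rather than for iron export, had 3, 1 and 2 reads in shCon and 81, 176 and 62 reads in shCdGAP libraries, a ratio of 52.6 with a 95% counting interval of 23.9 to 144 (adjusted p = 5.16e-05). Its relative FLVCR1, an exporter of heme, fell by 0.30 log2 units (SE 0.0473, adjusted p = 5.31e-04).

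Of 6 tested genes for storage and for the chaperones that load ferritin, 3 rose and 2 fell at the adjusted p under 0.01 (24.1% and 22% of all genes). PCBP3 had 7, 8 and 7 reads in shCon and 132, 170 and 126 reads in shCdGAP replicates 1, 2 and 3 (log2 fold change 4.24, SE 0.194, adjusted p = 3.10e-07), and PCBP4 measured 13.7, 13.7 and 13.6 CPM in shCon and 28.1, 29.6 and 29.5 CPM in shCdGAP libraries (log2 fold change 1.09, SE 0.0507, adjusted p = 3.49e-07). The PCBP3 ratio was 19.2 on 22 shCon reads, with a 95% counting interval of 12.5 to 31. Both belong to a family of RNA-binding proteins in which PCBP1 and PCBP2 are best known as carriers of iron to ferritin. These were the 2 that fell, PCBP1 by 0.16 (SE 0.0332, adjusted p = 0.00321, but over 0.01 without shCon replicate 1 or 2) and PCBP2 by 0.31 log2 units (SE 0.0337, adjusted p = 6.19e-05), both named here after their values were seen. TAX1BP1, an autophagy receptor that takes part in the turnover of ferritin, rose from 98.5 ± 0.909 to 173 ± 0.795 CPM (SD, n = 3 each; log2 fold change 0.81, SE 0.0318, adjusted p = 1.34e-07).

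Of 7 tested genes that sense iron or set hepcidin, 2 rose and 1 fell at the adjusted p under 0.01 (24.1% and 22% of all genes). SKP1, a subunit of the ubiquitin ligase that marks IRP2 for degradation, was higher by 0.38 log2 units (SE 0.0328, adjusted p = 1.43e-05). BMP2, a ligand that induces hepcidin in the liver, rose by 0.48 (SE 0.067, adjusted p = 2.73e-04). BMP6, another ligand that induces hepcidin, was the gene that fell, by 0.81 log2 units (SE 0.123, adjusted p = 4.46e-04), and is named after its values were seen. NEO1, the receptor neogenin, is named after its values were seen: it measured 8.7 to 9.06 CPM in shCon and 9.08, 22.5 and 8.85 CPM in shCdGAP replicates 1, 2 and 3, with a log2 fold change of 0.61 (adjusted p = 0.246) that was 0.00 without replicate 2.

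Of 12 tested genes of heme synthesis and breakdown, 6 rose and 1 fell at the adjusted p under 0.01 (24.1% and 22% of all genes). HMOX1, the inducible heme oxygenase that frees iron from heme, was the one called, at 4.2, 3.91 and 3.9 CPM in shCon and 18.1, 12.7 and 18.5 CPM in shCdGAP replicates 1, 2 and 3 (log2 fold change 2.03, SE 0.15, adjusted p = 6.66e-06, and 2.18 without replicate 2). UROD, an enzyme of heme synthesis, was higher by 0.42 log2 units (SE 0.0362, adjusted p = 1.48e-05). The groups of libraries did not overlap in either gene.

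All 30 listed genes of mitochondrial iron import and iron-sulfur cluster assembly were tested, and at the adjusted p under 0.01 1 was higher and 8 were lower, with none called (24.1% of all genes tested were higher and 22% lower). Without shCdGAP replicate 2 these counts were 4 and 9. Over all 16439 genes tested, they went from 3963 higher and 3624 lower to 4969 and 4990. Whether this role differs from the others was not tested. The range of their log2 fold changes was narrow, from -0.53 to 0.41, with a median of -0.04. CISD1, the iron-sulfur protein mitoNEET of the outer mitochondrial membrane, measured 91.3, 84 and 83.1 CPM in shCon and 62.1, 59.9 and 56.5 CPM in shCdGAP replicates 1, 2 and 3 (log2 fold change -0.53, SE 0.052, adjusted p = 2.94e-05). NUBP2, a scaffold for clusters in the cytosol, fell by 0.36 log2 units (SE 0.0391, adjusted p = 6.36e-05). With the replicate number as a block FDX1, named for this loss, no longer passed and 7 were lower (3421 of all 16439 genes tested were).

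Genes outside the list whose mRNA is known or proposed to carry an iron-responsive element showed small changes. EPAS1, which encodes the hypoxia factor HIF-2α, was higher by 0.33 log2 units (SE 0.0357, adjusted p = 5.40e-05). CDC42BPA and CDC14A, at 0.12 (adjusted p = 0.0381) and 0.14 (adjusted p = 0.182), did not pass 0.01.

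Genes for proteins that bind lipocalin 2 or make its cargo had few reads, apart from BDH2. SLC22A17, a proposed receptor for lipocalin 2, had 13, 5 and 6 reads in shCon and 16, 11 and 11 in shCdGAP replicates 1, 2 and 3 (adjusted p = 0.194). LRP2, the endocytic receptor megalin, had 3 reads in all, none of them in a shCdGAP library. MMP9, the gelatinase that forms a complex with lipocalin 2, had 4, 3 and 3 reads in shCon and 22, 23 and 15 in shCdGAP libraries, a ratio of 5.94 with a 95% counting interval of 3.01 to 13 (adjusted p = 1.63e-04). The MMP9 groups thus lay in the opposite order to those of LCN2. BDH2, an enzyme proposed to make a mammalian siderophore, had a log2 fold change of 0.31 (SE 0.0878, adjusted p = 0.0132).

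The other genes of the lipocalin family were at low levels or without reads. Of 19 such genes 11 had no read in any library and 4 could be tested. RBP4, the retinol carrier of plasma, was the most abundant of these, with 22.4, 23.1 and 22.2 CPM in shCon and 17.6, 16.9 and 17.5 CPM in shCdGAP replicates 1, 2 and 3, and it fell by 0.38 log2 units (SE 0.0515, adjusted p = 2.26e-04). APOM had 43, 40 and 20 reads in shCon and 18, 22 and 5 in shCdGAP libraries, with a log2 fold change of -1.20 (adjusted p = 0.0209, and 0.0064 with the replicate block). APOD, at 0.37 (adjusted p = 0.359), turned to -0.16 without shCdGAP replicate 2, and LCN12 was at 0.24 (adjusted p = 0.601) on at most 11 reads in a library.

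LCN2 lies on the long arm of chromosome 9 among genes that were themselves lower in shCdGAP cells, so its level was set against theirs. The median log2 fold change of the 662 tested genes of chromosome 9 was -0.42. Of 63 tested genes within 1 Mb of LCN2, 57 had a negative and 6 a positive log2 fold change. At an adjusted p under 0.01, 41 were lower (22% of all genes tested were), and 5 were called lower (4.19% of all genes tested were). The log2 fold changes of the 63 genes ran from -2.53 to 0.59 with a median of -0.52 and a median absolute deviation of 0.261. LCN2, at -4.32, lay 3.80 log2 units beyond that median and no gene of the window was as low. With windows of 0.5 to 5 Mb, the 20 nearest genes on each side, or abundant neighbours alone, the difference was -3.87 to -3.77. On the whole chromosome LCN2 ranked 3 from the lowest, and it was the lowest of the 419 genes whose average log2 CPM was 3 or more. Because LCN2 was taken up for its low level in this contrast, its rank and its distance from the neighbours are a description only.

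Taken library by library, measured from the shCon mean in log2 CPM, the median of these neighbours was -0.49, -0.51 and -0.50 in shCdGAP replicates 1, 2 and 3. LCN2 was at -4.90, -3.54 and -5.03 in the same libraries. The neighbourhood therefore sat at the same level in the 3 shCdGAP libraries, while LCN2 was higher in replicate 2 than in the other 2 libraries.

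**Figure D3:**
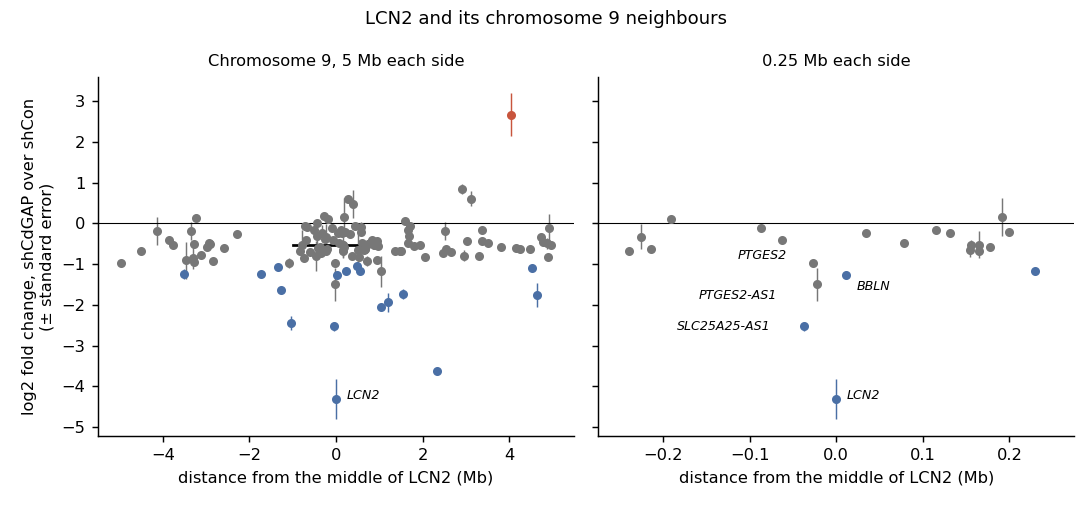
Log2 fold change of shCdGAP over shCon with its standard error for tested genes of chromosome 9 by distance from LCN2, within 5 Mb on the left and 0.25 Mb on the right; blue genes were called lower, red higher, grey neither, and the black bar marks the median of -0.52 within 1 Mb. LCN2 at -4.32 lies below every gene in both panels, and its nearest neighbours lie between -0.23 and -2.53.

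The genes next to LCN2 were uneven. On the side of lower coordinates the nearest were PTGES2-AS1, with 27, 13 and 27 reads in shCon and 7, 11 and 6 in shCdGAP replicates 1, 2 and 3 (log2 fold change -1.50, adjusted p = 0.0126, and under 0.01 without shCdGAP replicate 2 or shCon replicate 2), PTGES2, which encodes a prostaglandin E synthase (-0.97, SE 0.034, adjusted p = 7.79e-08), and SLC25A25-AS1 (-2.53, SE 0.11, adjusted p = 2.38e-07). On the other side BBLN, which starts 6.8 kb from the end of LCN2, measured 139, 143 and 141 CPM in shCon and 51.5, 69.3 and 53.8 CPM in shCdGAP libraries (-1.27, SE 0.105, adjusted p = 3.20e-05). In BBLN, as in LCN2, replicate 2 was the highest of the shCdGAP libraries. Beyond it CIZ1, a nuclear matrix protein gene, was at -0.23 (SE 0.0467, adjusted p = 0.00245, but over 0.01 without shCon replicate 1 or 2) and DNM1, which encodes dynamin, at -0.49 (SE 0.0517, adjusted p = 4.64e-05). Counting followed the strand, so the antisense genes were counted apart from their partners.

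ACO1 lies on the short arm of the same chromosome, away from the lower block. The 12 tested genes within 1 Mb of it had a median log2 fold change of -0.10, and ACO1 lay 0.31 above that. Its nearest neighbours on the side of higher coordinates, RIGI, an RNA sensor of the interferon response, and TOPORS, were at 0.45 (SE 0.104, adjusted p = 0.00495, but over 0.01 with any one library except shCdGAP replicate 2 left out) and -0.15 (adjusted p = 0.0304). On the other side RBMXP2 and LINGO2, at -0.29 (adjusted p = 0.312) and 0.10 (adjusted p = 0.809), did not pass 0.01.

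The spread of LCN2 within the shCdGAP group was wide. Its highest shCdGAP library held 2.81 times the CPM of its lowest, and its highest shCon library 1.03 times that of its lowest. Over the 10282 tested genes whose average log2 CPM was 3 or more, the median of this ratio was 1.11 in shCdGAP and 1.05 in shCon libraries. Of those genes 18 (0.175%) had a ratio in shCdGAP at least as large as that of LCN2, and in 15 of the 18 replicate 2 was the highest. In 186 of all 10282 genes replicate 2 lay outside replicates 1 and 3 by more than 1.5 times, against 0 for replicate 1 and 0 for replicate 3. Among the other abundant members, the ratio in shCdGAP was between 1.02 and 1.16, and SLC40A1 on its few reads had 2.09.

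The genes whose profile over the 6 libraries was most like that of LCN2 were sought among the 9727 tested genes with at least 10 CPM in shCon cells, by the root mean square difference of log2 CPM measured from each gene's shCon mean. They were SPINK5, a protease inhibitor of epithelia, at 0.369, ITGB4, the integrin beta 4 chain of hemidesmosomes, at 0.423, CRIP2 at 0.593, IGF2, a growth factor, at 0.6 and TINAGL1 at 0.66. None of them lies on chromosome 9. SPINK5 measured 67.7, 69.3 and 73.8 CPM in shCon and 3.45, 6.54 and 3.32 CPM in shCdGAP replicates 1, 2 and 3. In SPINK5, ITGB4, IGF2 and TINAGL1 replicate 2 was the highest shCdGAP library by a wide margin, as in LCN2, and in CRIP2 the shCdGAP libraries lay close together. The widest split was that of IGF2, at -6.08, -3.32 and -5.88 log2 units from its shCon mean in shCdGAP replicates 1, 2 and 3. These genes were picked for their likeness over the same 6 libraries, so neither their low level in shCdGAP cells nor the place of replicate 2 is a further result.

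**Figure D4:**
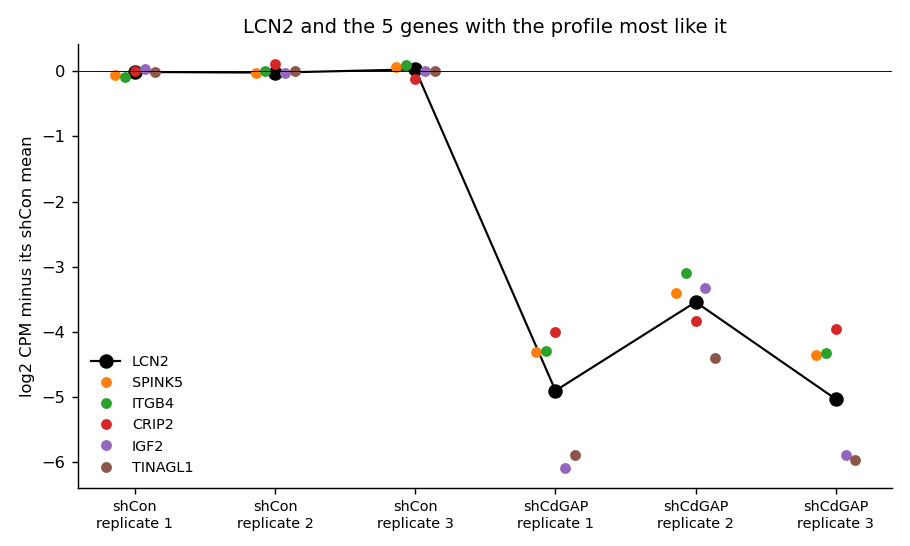
Log2 CPM measured from the shCon mean in each of the 6 libraries, for LCN2 (black, joined by a line) and the 5 genes with the smallest root mean square difference from it (coloured points). The shCon libraries lie close to 0, and LCN2 lies at -4.90, -3.54 and -5.03 in shCdGAP replicates 1, 2 and 3, with replicate 2 nearest to the control level for all 6 genes.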

How the data were processed

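RNA of 3 shCdGAP and 3 shCon samples of PC-3 cells was sequenced. The authors deposited raw counts of read pairs per gene. The submitters' notes and methods name FastQC 0.11.5, STAR 2.5.1b on GRCh38, featureCounts 1.4.6 and a single-read kit, while the file headers name featureCounts 1.6.0, Ensembl release 77, and strand-specific counting of pairs with both ends mapped to one chromosome. Reads with several alignments were left out. Symbols were matched for 56105 of 64253 genes (87.3%), and positions are those of the count tables.

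Counts were tested with edgeR 4.0.16 in R 4.3.3 (filterByExpr, TMM, robust quasi-likelihood F test, Benjamini-Hochberg adjustment over 16439 genes, no block). DESeq2 1.42.0 was an alternative, as were other scalings, filters on low counts and limits for a call, a replicate block and each library left out. Standard errors are the absolute log2 fold change over the square root of F. CPM was scaled by TMM, and RPKM is CPM per kilobase of exon. Python 3.11.15 prepared tables. The scripts were tested on simulated data.

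The methods name 3 independent samples per group. Deviations from the group means correlated by 0.123, 0.119 and 0.119 (10207 genes) between same-numbered shCdGAP and shCon libraries. Between differently numbered libraries they correlated by -0.202 to 0.0982. The numbers may therefore pair the libraries, which the labels do not state. Values printed without a named setting come from the fit with no block, which ignores such pairing. The blocked value is given where it changes a call.

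The members and gene lists were chosen with earlier results of these data known. Named genes are the members, ARHGAP31, the iron-list genes called and the 2 with the smallest adjusted p in each list, tested lipocalin and lipocalin 2 partner genes and other genes with a known or proposed iron-responsive element, the 3 nearest tested neighbours on each side of LCN2 and 2 of ACO1, the 5 profiles most like LCN2, and the 2 pseudogenes with most reads of each ferritin gene. Others are marked where they appear, and a few listed genes are not reported here.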

Additional observations from a re-analysis of the deposited data

How the results depend on the processing

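Over 13 alternatives LCN2 kept a log2 fold change of -4.98 to -4.07 and its distance from its neighbours on chromosome 9 stayed between -4.45 and -3.55, and no member changed direction, though SLC40A1 could not be fitted where at least 10 reads were asked of every library. Without a limit on size, the counts over all genes were 3963 higher and 3624 lower at an adjusted p under 0.01, and 5081 and 4762 at 0.05. The other iron genes then numbered 18 higher and 14 lower at 0.01, and 24 and 19 at 0.05, and 3 were called higher where at least 10 reads were asked of every library, since FLVCR2 and PCBP3 then left the table. With library sizes alone FTL was at 0.59 and NCOA4 at 0.28. With each library left out in turn FTL ran from 0.54 to 0.56 and NCOA4 from 0.24 to 0.26. APOD ran from -0.16, without shCdGAP replicate 2, to 0.61. With the replicate block, 2048 genes were called over all genes against 2096, and LCN2 was at -4.48. Of the other iron genes 31 had an adjusted p under 0.01 against 32, and of all genes 7229 against 7587. Beyond the changes named in the text the paired fit changed no call among the listed genes reported here. APOM passed 0.01 with no filter on low counts (2.85e-04) and without shCdGAP replicate 2 (3.26e-04), BDH2 with library sizes alone (0.00988) and without shCdGAP replicate 2 (8.02e-04), and CDC42BPA without that library (1.17e-05). The causes were not tested. Depth limits SLC40A1, FLVCR2, PCBP3, MMP9, SLC22A17, APOM and LCN12, where the lower group had few reads.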
